A study of Mus musculus with 14 samples.

Results

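The serpin genes followed here in sorted lymph-node dendritic cells (DCs) are Serpinb6a, Serpinb6b, Serpinb1a, Serpinb9, Serpinb9b, Serpina3g and Serpina3f. They are 7 of 23420 gene symbols in the deposited count table, and they were taken by symbol. The set was chosen by the counts of the biotin-sorted groups, since Serpinb6b had the smallest p of all genes between them. All 7 passed the filter on low counts that left 14217 genes for testing. Since the contrast between the biotin groups chose them, their values in that contrast are a description with no test, and Serpinb6b is given by its values in every comparison.

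Serpins are protease inhibitors that work once only: the target protease cuts an exposed reactive loop, and the loop then folds into the body of the serpin and drags the protease along, trapped. The sequence of that loop largely sets which protease is caught. Clade B serpins stay in the cytosol and nucleus and are known for protecting immune cells from their own or their neighbours' granule proteases. DCs that present antigen to T cells face such proteases, and Serpinb9 in particular is known as a shield against granzyme B. Several clade A3 genes of the mouse are induced by interferon-gamma in several cell types.

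The cells came from popliteal lymph nodes of C57BL/6 mice in an experiment that marks cell contacts by transfer of a biotinylated peptide (LIPSTIC). In it, CD4+ OT-II T cells with sortase A on CD40 ligand (CD40lgSrtA/Y CD4-Cre, so the allele is switched in T cells) label DCs that carry a pentaglycine tag on CD40. The biotin-positive group (6 libraries) held endogenous DCs of Cd40G5/G5 recipients that had taken up the label, and the biotin-negative group (6 libraries) DCs of the same kind of recipient that had not. Both had received Cd40G5/G5 DCs pulsed with the peptide OVA323-339 and, 18 hours later, the sortase T cells. The sortase substrate Biotin-LPETG went into the footpads of all 3 groups 46 hours after the T cells, and nodes were taken at 48 hours. The Cd40-null group (2 libraries) held DCs of Cd40-/- mice whose transferred DCs and OT-II T cells were both wild type, so genotype and transfer differ together, and these DCs were not split by label. All groups were sorted as high in MHC class II, CD11c+ and CD11b+ but XCR1-, with 150 cells in each library. The ages of the mice and whether the libraries come from separate mice are not given. Every p-value therefore reflects only how far these samples spread, which may be technical.

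Total counts ran from 14518099 to 33260704 in biotin-positive libraries, from 16762804 to 28631847 in biotin-negative libraries and from 19707746 to 23843843 in Cd40-null libraries. Biotin-positive libraries had counts for 13090 to 13455 genes, biotin-negative libraries for 14225 to 15742 and Cd40-null libraries for 13113 and 13596. Cd40, the gene removed in the null mice, was at 852 to 1309 CPM (counts scaled to a common library total with TMM factors) in biotin-positive libraries, at 386 to 598 CPM in biotin-negative libraries, and at 53.3 and 74.2 CPM in Cd40-null libraries. The 7 DC markers (Itgax, Flt3, Zbtb46, H2-Aa, H2-Ab1, Cd74 and Ccr7) were present in every group, at a summed level of 5090 to 7440 CPM in biotin-positive, 8290 to 10900 CPM in biotin-negative and 6120 and 7610 CPM in Cd40-null libraries, and 4 of the 7 were called lower in biotin-positive than in biotin-negative libraries. Itgam, which encodes CD11b, a marker of the sort, averaged 1.91 ± 2.38 CPM over the 6 biotin-positive, 25.3 ± 21.3 CPM over the 6 biotin-negative and 14.7 ± 5.03 CPM over the 2 Cd40-null libraries.

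The genes fall in 2 clusters of the mouse genome (GRCm38, GENCODE M21). The clade B genes lie on chromosome 13 between 32842092 and 34002794, an interval of 1161 kb that holds 17 protein-coding genes, 15 of them serpins. Serpinb6b (32965209 to 32979067), Serpinb9 (33003250 to 33017957) and Serpinb9b (33027416 to 33041884) stand next to each other on the plus strand, separated by 24.2 and 9.5 kb. Serpinb1a (32842092 to 32851185, minus strand) is 114.0 kb to the left of Serpinb6b. Serpinb6a (33917918 to 34002794, minus strand) is 876.0 kb to the right of Serpinb9b. Serpina3f (104214544 to 104221129) and Serpina3g (104236245 to 104241939) are neighbours on chromosome 12.

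The reactive loop is shown first because its sequence largely sets the target protease. Each line is the coding strand, 5′ to 3′, from the conserved hinge of the loop to the conserved codons that follow it, and the capitals mark the variable codons in between. The stretches were located in the longest reading frame of each gene's longest protein-coding transcript, and each lies within the last exon of that transcript.
Serpinb6a: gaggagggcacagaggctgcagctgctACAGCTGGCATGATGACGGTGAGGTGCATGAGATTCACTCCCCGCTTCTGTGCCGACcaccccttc
Serpinb6b: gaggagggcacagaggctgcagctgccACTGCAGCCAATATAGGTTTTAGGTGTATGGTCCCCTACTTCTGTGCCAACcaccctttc
Serpinb1a: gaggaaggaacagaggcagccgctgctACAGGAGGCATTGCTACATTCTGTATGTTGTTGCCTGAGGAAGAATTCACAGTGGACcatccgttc
Serpinb9: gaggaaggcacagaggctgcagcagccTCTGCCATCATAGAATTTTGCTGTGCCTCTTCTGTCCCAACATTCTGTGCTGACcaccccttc
Serpinb9b: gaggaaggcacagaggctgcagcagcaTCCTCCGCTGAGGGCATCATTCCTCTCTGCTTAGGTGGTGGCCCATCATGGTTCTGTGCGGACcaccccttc
They lie on chromosome 13 at 33918107 to 33918199 (Serpinb6a), 32978201 to 32978287 (Serpinb6b), 32842884 to 32842976 (Serpinb1a), 33015693 to 33015782 (Serpinb9) and 33039796 to 33039894 (Serpinb9b). Over the 27 bases of the hinge, Serpinb6a and Serpinb6b differ at 1 base, as do Serpinb9 and Serpinb9b. The variable part runs to 19 codons in Serpinb6a and Serpinb1a, 17 in Serpinb6b, 18 in Serpinb9 and 21 in Serpinb9b. There, Serpinb6a and Serpinb6b are 61.4% identical against 85.7% over their whole reading frames, and Serpinb9 and Serpinb9b are 53% identical against 85.3%. Similar genes can exchange short reads, so the words of 38 bases, the read length, that a transcript shares with any other gene were counted. They made up 5.29% of the words of Serpinb6b, 25.3% of those of Serpinb6a, 7.87% of Serpinb1a, 2.45% of Serpinb9, 8.43% of Serpinb9b, 24% of Serpina3g and 20.3% of Serpina3f. Serpinb6a shares most of them (314 of 409) with the predicted gene 1110046J04Rik, which had at most 59 counts in any library, and 20 with Serpinb6b. Serpina3g and Serpina3f share over 200 with each other, so their split is the least certain.

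Serpinb6b, an inhibitor of mouse granzyme A, was about as high in every biotin-positive library. The lowest, median and highest levels were 1824, 2019 and 2150 CPM over the 6 biotin-positive libraries and 715, 811 and 996 CPM over the 6 biotin-negative ones, and the Cd40-null libraries held 1063 and 981 CPM. The lowest biotin-positive library was above every library of both other groups, while the Cd40-null libraries reached just above, and just below, the highest biotin-negative one. The mean was 1998 ± 136 CPM in biotin-positive against 836 ± 97.7 CPM in biotin-negative libraries (SD, n = 6 each), 2.39-fold higher. The same libraries differed in markers of other DC subsets and cell types, given with the marker lists further on. Against 1022 ± 58.0 CPM in Cd40-null libraries (SD, n = 2) biotin-positive ones were 1.95-fold higher (log2 0.97, SE 0.12), and biotin-negative ones stood at 0.82 of the null level (log2 -0.29, SE 0.11). In RNA of sorted pools, more cells that express a gene and more RNA per cell cannot be told apart.

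Serpinb6a, which inhibits cathepsin G and other trypsin- and chymotrypsin-like proteases, followed the same order at a lower level. Its lowest, median and highest levels were 87.6, 103.5 and 108.5 CPM in biotin-positive and 29.2, 33.6 and 51.7 CPM in biotin-negative libraries, and the Cd40-null libraries held 59.5 and 44.4 CPM. Every biotin-positive library was above every other library, and biotin-negative replicate 6 fell between the null libraries. Serpinb6a was 2.82-fold higher in biotin-positive than in biotin-negative libraries. It rose 1.97-fold over Cd40-null libraries (102 ± 7.50 CPM, n = 6, against 51.9 ± 10.7 CPM, n = 2; log2 0.98, SE 0.22, adjusted p = 0.0253 by edgeR). The call rests on both null libraries: without replicate 1 the adjusted p was 0.0973 and without replicate 2 it was 0.316, at log2 1.21 and 0.78. The share of Serpinb6a in the summed Serpinb6a and Serpinb6b counts was close among the groups, at 4.88% ± 0.509 in biotin-positive (n = 6), 4.21% ± 1.1 in biotin-negative (n = 6) and 4.81% ± 0.690 in Cd40-null libraries (n = 2).

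Serpinb9, the granzyme B inhibitor, had the most counts of the 7. The lowest, median and highest libraries stood at 2304, 2645 and 3352 CPM among the biotin-positive ones and at 1145, 1344 and 1781 CPM among the biotin-negative ones, with the Cd40-null libraries at 1521 and 1515 CPM. Again no biotin-positive library overlapped the others, and both null libraries lay inside the biotin-negative range. Between biotin-positive and biotin-negative libraries the log2 fold change was 0.96 (SE 0.11). Over Cd40-null libraries it rose 1.81-fold (2742 ± 388 CPM, n = 6, against 1518 ± 4.36 CPM, n = 2; log2 0.85, SE 0.16, adjusted p = 0.00953 by edgeR). The fold was nearly the same without null replicate 1 (log2 0.86, adjusted p = 0.121) or replicate 2 (log2 0.85, adjusted p = 0.105), though the call was lost each time. The biotin-negative level differed from the null level by log2 -0.11 (SE 0.15, edgeR adjusted p = 0.901), with a 95% confidence interval from -0.43 to 0.22.

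**Figure D1:**
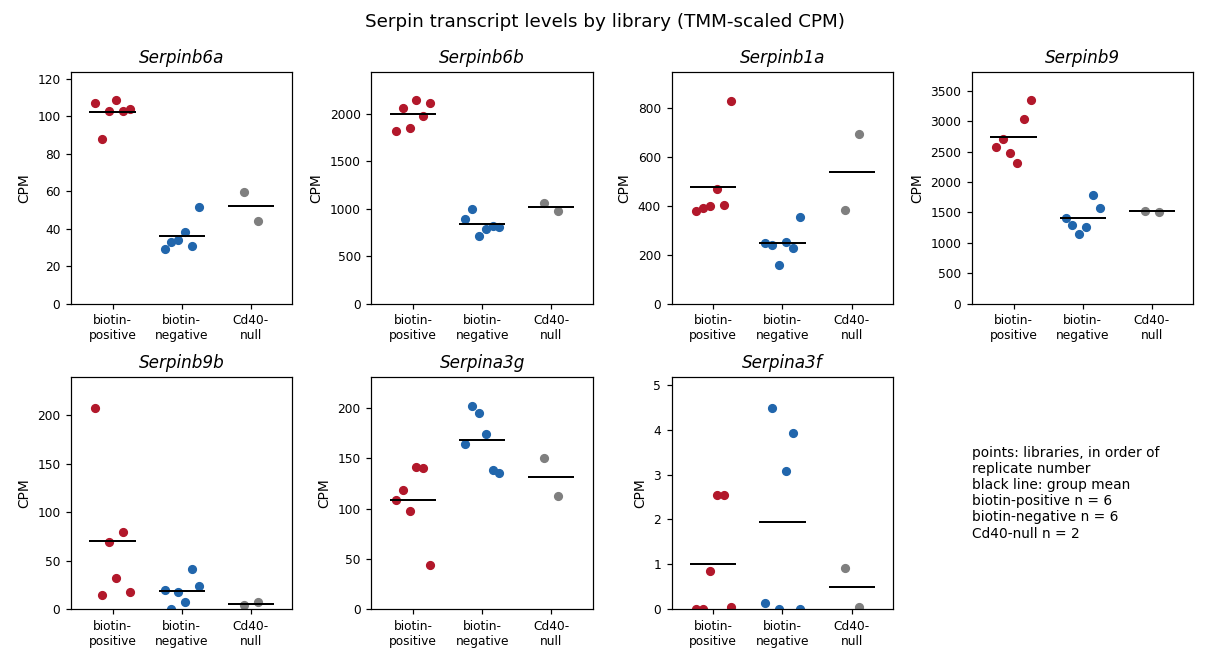
TMM-scaled CPM of the 7 serpin genes in each library (one point per library, in the order of replicate numbers; black line, group mean) for biotin-positive (n = 6), biotin-negative (n = 6) and Cd40-null (n = 2) DCs. Serpinb6a, Serpinb6b and Serpinb9 have every biotin-positive library above all others, while Serpinb1a is about as high in Cd40-null libraries and Serpina3f stays under 5 CPM.

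Serpinb1a, which inhibits neutrophil elastase, proteinase 3 and cathepsin G, had another order. It ran from 379 CPM over a median of 400.3 to 826 CPM in biotin-positive libraries and from 160.1 CPM over a median of 243 to 353 CPM in biotin-negative libraries, and stood at 383 and 691 CPM in Cd40-null libraries. All biotin-positive and both null libraries were above every biotin-negative one, and the null libraries lay within the biotin-positive range. That range ends at replicate 6 (826 CPM). The other biotin-positive libraries held 379 to 469 CPM, below the null library at 691 CPM. Serpinb1a was 1.94-fold higher in biotin-positive than in biotin-negative libraries (log2 0.96, or 0.73 without biotin-positive replicate 6). Against Cd40-null libraries (477 ± 174 CPM, n = 6, against 537 ± 218 CPM, n = 2) the biotin-positive level gave a ratio of 0.889, with a 95% interval from 0.575 to 1.38 (edgeR adjusted p = 0.886), and without null replicate 2 the sign turned (log2 0.32). The biotin-negative level was 2.18-fold lower than the null level (log2 -1.13, SE 0.28, adjusted p = 0.133 by edgeR), which was not called. The adjusted p was 0.0363 without biotin-positive replicate 6, a library outside this comparison that enters the shared estimate of the spread.

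Serpinb9b, reported as an inhibitor of granzyme M in the mouse, varied most from library to library among the clade B genes. The lowest, median and highest biotin-positive libraries held 14.8, 50.5 and 207 CPM, the biotin-negative ones 0.238, 18.8 and 41.8 CPM, and the Cd40-null libraries 3.90 and 7.12 CPM. The biotin groups overlapped, while every biotin-positive library was above both null libraries. The SD was 103% of the mean in biotin-positive libraries, against 14.1% for its neighbour Serpinb9. Against Cd40-null libraries (5.51 ± 2.28 CPM, n = 2) biotin-positive ones averaged 69.9 ± 72.3 CPM (n = 6), a 12.7-fold difference with a 95% interval from 1.56 to 103 that edgeR did not call (adjusted p = 0.243). Without biotin-positive replicate 1, the highest library, the log2 change was 2.95 against 3.67 with it. DESeq2, which called 803 genes here against 323 by edgeR, called Serpinb9b (adjusted p = 0.0383). Biotin-negative libraries, at 18.5 ± 14.3 CPM (n = 6), did not pass the test against the null ones (edgeR adjusted p = 0.691).

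Serpina3g, an inhibitor of lysosomal cysteine cathepsins such as cathepsin B that acts in the cytosol, had its highest mean in biotin-negative libraries. Over a median of 114 CPM it ranged from 43.5 to 141 CPM in biotin-positive libraries, and over a median of 169 CPM from 136 to 202 CPM in biotin-negative libraries, with 151 and 113 CPM in Cd40-null libraries. The biotin groups overlapped at their edges, with the 4 highest biotin-negative libraries above all biotin-positive ones, and the null libraries lay across both. The level in biotin-positive libraries was 1.56-fold lower than in biotin-negative libraries (log2 -0.64, SE 0.22). Against Cd40-null libraries (132 ± 27.1 CPM, n = 2) neither biotin-positive (108 ± 36.2 CPM, n = 6; log2 -0.28, SE 0.30, adjusted p = 0.764) nor biotin-negative libraries (168 ± 27.9 CPM, n = 6; log2 0.35, SE 0.31, adjusted p = 0.774) passed edgeR's test. Biotin-positive replicate 6, the lowest in Serpina3g, was the highest in Serpinb1a and in Serpinb9.

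Serpina3f, the neighbour of Serpina3g, was near the lower limit of the measurement. It had 0 to 82 counts in biotin-positive, 0 to 113 counts in biotin-negative, and 1 and 23 counts in Cd40-null libraries, with 2 biotin-positive and 2 biotin-negative libraries at 0. The levels were 0.999 ± 1.24 CPM (n = 6), 1.94 ± 2.12 CPM (n = 6) and 0.489 ± 0.618 CPM (n = 2) in these 3 groups. Neither comparison with Cd40-null libraries passed edgeR's test (adjusted p = 0.920 for biotin-positive, log2 1.02, SE 2.29; adjusted p = 0.872 for biotin-negative, log2 1.97, SE 2.43), and differences of several fold could not be detected at these counts.

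**Figure D2:**
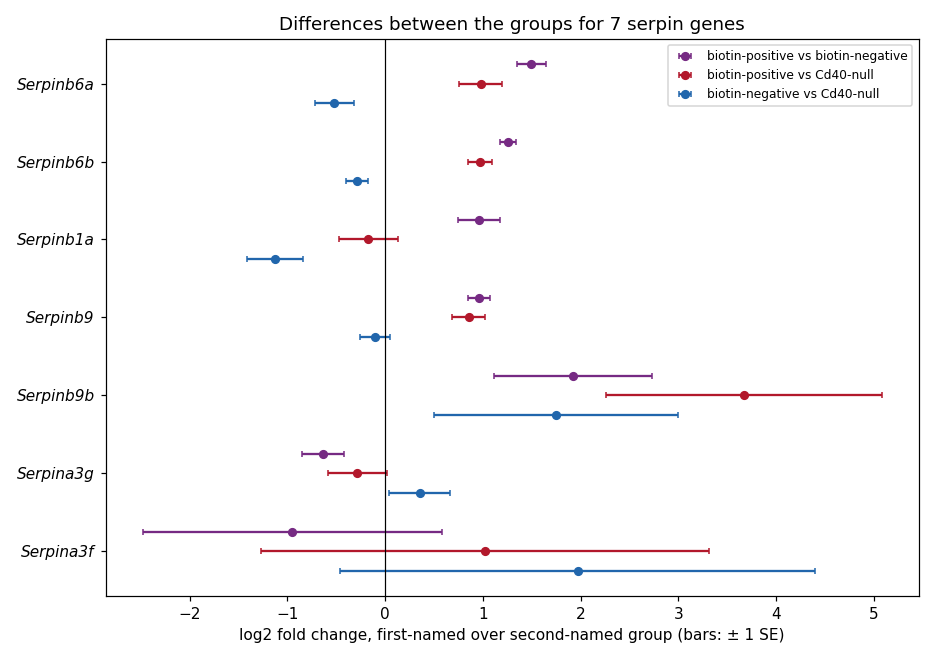
Log2 fold change of each gene between the groups, first-named over second-named, with bars of ± 1 SE from the edgeR fit. In Serpinb6a, Serpinb6b and Serpinb9 both contrasts of biotin-positive libraries lie right of 0, the least at 0.85 for Serpinb9, and the wide bars of Serpina3f show how little its counts settle.

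Counted together, edgeR called 4 of the 7 genes higher and 0 lower in biotin-positive than in biotin-negative libraries, in a contrast where 7.75% of all genes were called (3.7% higher and 4.05% lower). The same 4 did not overlap between these groups, as held for 2.6% of all genes upward and 2.41% downward. That contrast chose the genes, so nothing is read from the count. Of the 6 genes other than Serpinb6b, 2 rose and 0 fell in biotin-positive against Cd40-null libraries, where 2.27% of all genes were called (1.22% higher and 1.05% lower). The 2 are Serpinb6a and Serpinb9. Between biotin-negative and Cd40-null libraries edgeR called 0 of the 6 (2 at an unadjusted p under 0.05, Serpinb6a and Serpinb1a), DESeq2 and limma voom also called 0, and 0.317% of all genes were called (0.274% higher and 0.0422% lower). The comparisons share libraries and are not independent of each other or of the contrast that chose the genes. By overlap, 3 of the 6 had all biotin-positive libraries above both null libraries (7.81% of all genes, and 8.07% the other way), and 1 of the 6, Serpinb1a, had all biotin-negative libraries below both (4.47% of all genes, and 6.23% above both). The median log2 change of the 6 was 0.91 in biotin-positive against Cd40-null libraries (all genes 0.04) and 0.12 in the biotin-negative ones against the same libraries (all genes 0.06). Biotin-positive libraries had counts for fewer genes, 13295.8 ± 155, than biotin-negative ones, 14975.7 ± 621 (SD, n = 6 each). With that number as a covariate edgeR called 1 of the 7 between the biotin groups and still 2 of the 6 between biotin-positive and Cd40-null libraries. Every biotin-negative library had more detected genes than every biotin-positive one. Between the biotin groups the covariate can therefore hardly be told apart from the group.

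Levels of different genes were compared per kilobase of the longest protein-coding transcript. In biotin-positive libraries Serpinb6b (911 ± 61.9 CPM per kb) and Serpinb9 (790 ± 112) led, with overlapping ranges, followed by Serpinb1a (249 ± 90.6), Serpinb6a (61.8 ± 4.53), Serpina3g (60.1 ± 20.1), Serpinb9b (21.5 ± 22.2) and Serpina3f (0.444 ± 0.552; SD, n = 6 each). Serpinb6a, Serpina3g and Serpinb9b overlapped from one to the next. In biotin-negative libraries the order by mean was Serpinb9 (406 ± 67.0 CPM per kb), Serpinb6b (381 ± 44.5), Serpinb1a (128 ± 32.4), Serpina3g (93.4 ± 15.5), Serpinb6a (21.9 ± 4.97), Serpinb9b (5.68 ± 4.40) and Serpina3f (0.863 ± 0.944), and only the steps below Serpinb6b, Serpina3g and Serpinb6a were free of overlap. In Cd40-null libraries the order was Serpinb6b (466 ± 26.3 CPM per kb), Serpinb9 (437 ± 1.22), Serpinb1a (280 ± 114), Serpina3g (73.0 ± 15.1), Serpinb6a (31.4 ± 6.48), Serpinb9b (1.70 ± 0.700) and Serpina3f (0.217 ± 0.275; SD, n = 2 each). Thus, by mean, Serpinb6b and Serpinb9 held the first places and Serpinb9b and Serpina3f the last in every group. Serpina3g was above Serpinb6a without overlap in biotin-negative and Cd40-null libraries, while in biotin-positive libraries their means were close and their ranges overlapped.

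**Figure D3:**
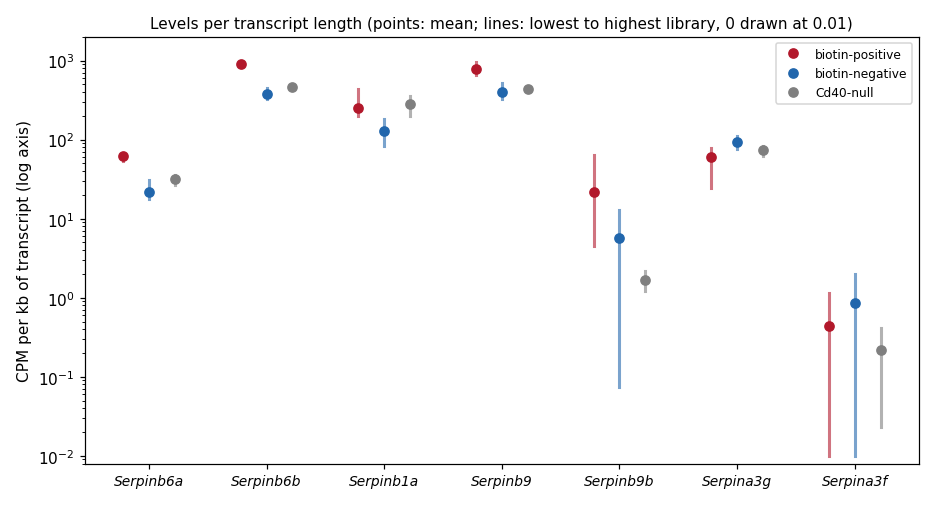
Mean CPM per kb of transcript (points, log axis) with the range over libraries (lines; values of 0 are drawn at 0.01) for biotin-positive (n = 6), biotin-negative (n = 6) and Cd40-null (n = 2) DCs. Serpinb6b and Serpinb9 lie between 326 and 980 CPM per kb in every group, whereas Serpina3f reaches at most 1.99.

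The genes whose log2 CPM ran most like that of Serpinb6b over the 14 libraries, among 8889 genes at a mean of 5 CPM or more, were Tmem39a (Pearson r = 0.973), Snx11, a sorting nexin (0.972), Epsti1 (0.971), Eml3 (0.962) and Cacnb3, a subunit of voltage-gated calcium channels (0.962). These values carry the difference between the groups that chose Serpinb6b. With each library set relative to its group mean, other genes came first: Tuba1b, an alpha-tubulin (0.941), Nubp2 (0.872), Necap2 (0.860), Mien1 (0.856) and Idnk (0.851). Both rankings are descriptions of 14 libraries that share groups and scaling.

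The rest of the serpin family was nearly silent. Of 57 other rows (symbols that start with Serpin, and Agt), 6 were at 0 in every library, 50 had a mean under 1 CPM and 16 passed the filter. Those with a mean of at least 5 CPM were Serpinc1 (antithrombin), Serpini1 (neuroserpin), Serpinb1b and Serpind1 (heparin cofactor II). Only Serpini1 was called, lower in biotin-positive than in biotin-negative libraries (6.86 ± 4.68 against 24.5 ± 9.17 CPM, n = 6 each; log2 -1.84, SE 0.52, adjusted p = 0.0364 by edgeR). Against Cd40-null libraries edgeR called 0 of the 16 in either biotin group. The near copies hold few reads: the 7 genes took 99.93 to 100% of all Serpinb6 counts, 99.78 to 100% of Serpinb9, 93.36 to 98.9% of Serpinb1 and 89.87 to 98.82% of Serpina3 counts in each library. Summing each of these families to 1 row left Serpinb6 at log2 0.97 (SE 0.12) and Serpinb9 at log2 0.88 (SE 0.16, adjusted p = 0.00706 by edgeR) in biotin-positive against Cd40-null libraries.

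Of the proteases that these serpins are known to inhibit, the cysteine cathepsins were well measured and the granule proteases hardly at all. Of 11 granzyme and perforin genes, 3 were at 0 in every library and 1, Gzmm, passed the filter, with at most 1.45 CPM in biotin-positive, 1.48 CPM in biotin-negative and 0.282 CPM in Cd40-null libraries. Gzma had counts in 3 and Gzmb in 2 of the 14 libraries, with at most 1.74 and 2.99 CPM. Of 12 serine proteases of neutrophils and mast cells 1 passed the filter, and Ctsg, which encodes cathepsin G, was at 0 throughout. All 10 cysteine cathepsins were measured. Cathepsin B, Ctsb, a target of Serpina3g, rose in biotin-positive libraries over both biotin-negative (1210 ± 161 against 543 ± 72.0 CPM; 2.23-fold, adjusted p = 1.4e-05) and Cd40-null libraries (619 ± 140 CPM; log2 0.97, SE 0.17, adjusted p = 0.00501; edgeR). Ctss, which degrades the invariant chain, was lower in biotin-positive than in biotin-negative libraries (981 ± 85.6 against 1220 ± 101 CPM; log2 -0.32, SE 0.08, adjusted p = 0.0169), and the other 8 were not called in any comparison.

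Other inhibitors and proteases gave few calls. Of 4 tested cystatins and stefins, cystatin C, Cst3, was higher (3140 ± 542 against 2050 ± 611 CPM; log2 0.61, SE 0.16, adjusted p = 0.0227) and stefin B, Cstb, lower (73.5 ± 12.0 against 129 ± 30.7 CPM; log2 -0.81, SE 0.16, adjusted p = 0.00352) in biotin-positive than in biotin-negative libraries. Of 9 tested caspases 0 rose and 2 fell in the same contrast, among them Casp4, which senses cytosolic lipopolysaccharide (log2 -0.50, SE 0.15, adjusted p = 0.0492). Of 10 tested genes of plasminogen activation and related membrane proteases only St14, matriptase, was called (161 ± 50.7 against 54.4 ± 27.6 CPM; log2 1.56, SE 0.30, adjusted p = 0.00296). None of these lists had a call between biotin-negative and Cd40-null libraries, and of the cystatins, caspases and plasminogen genes none was called between biotin-positive and Cd40-null libraries by edgeR.

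Interferon-gamma response genes, set beside the inducible Serpina3 genes, went both ways. Of 25 measured, 4 rose and 2 fell in biotin-positive against biotin-negative libraries, with a median log2 change of 0.07 (all genes -0.03). The transcription factors Irf8 (437 ± 98.6 against 191 ± 47.2 CPM, adjusted p = 0.000431) and Irf1 (log2 0.69, SE 0.12, adjusted p = 0.00141) were among the higher ones by edgeR. Against Cd40-null libraries 1 rose, the MHC class I transactivator Nlrc5 (log2 0.77, SE 0.17, adjusted p = 0.0212), and 2 fell, at a list median of -0.28 (all genes 0.04). Between biotin-negative and Cd40-null libraries 0 of the 25 were called.

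The promoter windows of these genes were searched for elements that interferon and NF-kB signals act through, because the 7 genes differ in the order of the groups. RefSeq's table (GRCm38.p6) gave 8 windows of 300 bases, 250 before to 50 after the start, for 6 of the 7 genes, and none for Serpinb1a. Searched on both strands were the gamma-activated site GAS (TTCNNNGAA), the core of the interferon-stimulated response element (GAAA, any 2 bases, GAAA), an ETS-IRF composite (GGAA, any 2 bases, GAAA) and the NF-kB consensus. They occur in 8.3%, 3.44%, 2.72% and 8.46% of all 32851 windows. Capitals mark the matches below.
Serpinb6b: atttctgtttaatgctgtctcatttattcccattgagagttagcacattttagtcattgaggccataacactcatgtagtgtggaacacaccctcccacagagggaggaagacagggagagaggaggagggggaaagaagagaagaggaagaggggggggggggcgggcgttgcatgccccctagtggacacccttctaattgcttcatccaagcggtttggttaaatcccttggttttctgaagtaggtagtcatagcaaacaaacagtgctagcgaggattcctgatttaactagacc
Serpinb6a: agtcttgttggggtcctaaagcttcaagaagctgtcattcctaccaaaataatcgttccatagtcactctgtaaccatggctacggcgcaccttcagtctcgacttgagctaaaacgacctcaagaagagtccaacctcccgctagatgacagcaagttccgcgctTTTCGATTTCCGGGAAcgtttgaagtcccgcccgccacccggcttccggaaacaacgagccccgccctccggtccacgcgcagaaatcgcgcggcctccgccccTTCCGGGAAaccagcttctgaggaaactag
Serpinb9: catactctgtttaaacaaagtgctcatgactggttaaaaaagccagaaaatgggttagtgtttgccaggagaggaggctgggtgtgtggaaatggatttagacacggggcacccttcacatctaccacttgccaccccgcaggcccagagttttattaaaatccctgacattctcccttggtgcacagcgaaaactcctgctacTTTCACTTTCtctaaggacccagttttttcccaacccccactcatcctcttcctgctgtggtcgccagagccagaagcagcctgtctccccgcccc
Serpinb9b: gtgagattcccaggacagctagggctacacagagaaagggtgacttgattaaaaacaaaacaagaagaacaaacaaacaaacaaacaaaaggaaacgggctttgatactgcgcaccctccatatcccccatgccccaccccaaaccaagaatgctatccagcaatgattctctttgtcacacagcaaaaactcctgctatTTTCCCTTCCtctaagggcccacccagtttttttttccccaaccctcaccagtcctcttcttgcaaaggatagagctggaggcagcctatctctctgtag
Serpina3g: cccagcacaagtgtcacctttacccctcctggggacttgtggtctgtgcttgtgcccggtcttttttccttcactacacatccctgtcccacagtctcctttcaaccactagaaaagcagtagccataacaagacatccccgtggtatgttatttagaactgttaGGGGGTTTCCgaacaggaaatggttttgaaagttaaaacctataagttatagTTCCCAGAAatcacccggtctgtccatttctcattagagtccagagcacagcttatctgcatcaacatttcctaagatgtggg
Serpina3f: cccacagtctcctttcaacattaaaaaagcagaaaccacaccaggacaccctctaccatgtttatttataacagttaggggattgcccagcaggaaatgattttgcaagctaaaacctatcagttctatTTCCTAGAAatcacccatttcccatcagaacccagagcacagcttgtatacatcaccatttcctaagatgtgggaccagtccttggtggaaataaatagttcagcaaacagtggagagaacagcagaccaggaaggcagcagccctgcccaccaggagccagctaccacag
The windows are chr13:32965011-32965310 (plus strand) for Serpinb6b, chr13:34002745-34003044 (minus strand) for Serpinb6a, chr13:33004291-33004590 for Serpinb9 and chr13:33027164-33027463 for Serpinb9b (both plus), and chr12:104235897-104236196 for Serpina3g and chr12:104214294-104214593 for Serpina3f (both plus). The Serpinb6b window holds none of these letters. The first Serpinb6a window holds 2 GAS matches, 77 bases before and 21 bases after the start, the first of them overlapping a response-element core, and its second window (chr13:33936034-33936333) holds none. Serpinb9 has a response-element core 46 bases before the start that RefSeq gives. This window lies inside the GENCODE gene (33003250 to 33017957), downstream of its first base, so the match is not upstream of that gene. At the corresponding place of the Serpinb9b window, 50 bases before the start, the letters match the ETS-IRF composite instead. Over 215 aligned bases the Serpinb9 and Serpinb9b windows are 68.8% identical. Serpina3g has a GAS match 33 bases and an NF-kB match 85 bases before its start, while Serpina3f has the GAS match (121 bases before) without the NF-kB one, in windows that are 79% identical over 214 aligned bases. A second, overlapping Serpina3f window holds the same GAS match. These matches describe letters only.

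Several marker lists of DC subsets and other cell types differed between the same groups. The gate asks for high MHC class II, CD11c and CD11b, which should leave out T cells and most NK cells, and type 2 DCs are the cells it is meant to hold. The 4 Langerhans cell markers, Epcam and Cd207 among them, summed to 215 to 293 CPM in biotin-positive libraries, against 30.6 to 106 CPM in biotin-negative and 91.0 and 101 CPM in Cd40-null libraries, so they were high in the libraries in which Serpinb6a, Serpinb6b and Serpinb9 were high. Of the 4, 2 were called higher against biotin-negative and 0 against Cd40-null libraries, where edgeR's adjusted p was 0.0758 for Epcam and 0.0745 for Cd207. The 12 monocyte and macrophage markers in the table summed to 83.4 to 220 CPM in biotin-positive, 198 to 1220 CPM in biotin-negative, and 234 and 436 CPM in Cd40-null libraries, with 7 of 12 called lower in biotin-positive than in biotin-negative libraries and Mertk at 0 in both null libraries. The 8 markers of NK cells, which also express Serpinb9, summed to 38.8 to 72.7 CPM, 151 to 240 CPM, and 133 and 164 CPM in the 3 groups. Of the 3 that passed the filter 2, Klrd1 and Klrk1, were called lower in biotin-positive than in biotin-negative and than in Cd40-null libraries. Of the defining NK genes Ncr1 and Gzma were at 0 in every biotin-positive library, Prf1 in every biotin-negative library and all 3 in both null libraries. The 6 markers of type 2 DCs summed to 109 to 251 CPM in biotin-positive, 405 to 562 CPM in biotin-negative, and 421 and 422 CPM in Cd40-null libraries. Of these, 4 were called lower in biotin-positive than in biotin-negative libraries, and 1, Zeb2, was called lower than in Cd40-null libraries. The 9 T cell markers in the table summed to 5.14 to 40.2 CPM in biotin-positive, 12.5 to 82.5 CPM in biotin-negative, and 28.2 and 85.5 CPM in Cd40-null libraries, none called and none at 0 in a whole group. The part of these cell types in the serpin levels was not tested.

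**Figure D4:**
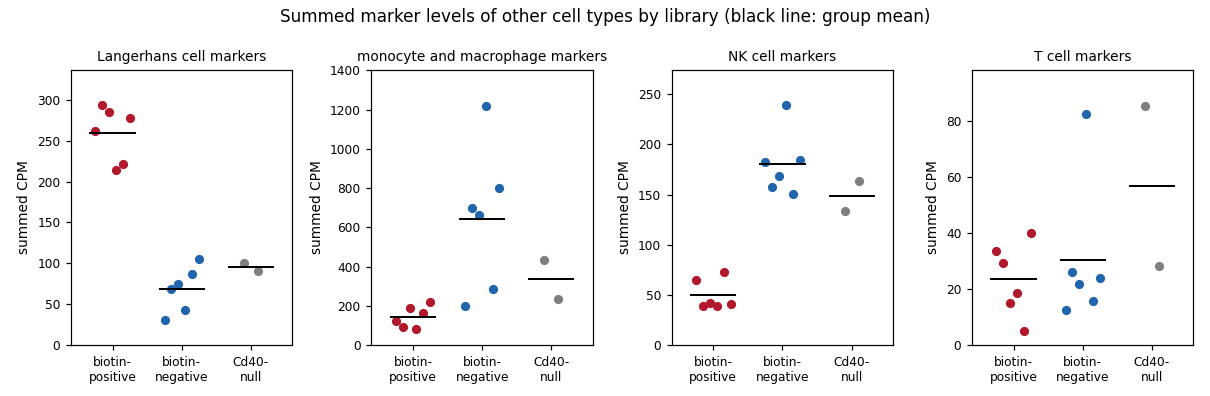
Summed CPM of Langerhans cell, monocyte and macrophage, NK cell and T cell markers in each library (points; black line, group mean) of biotin-positive (n = 6), biotin-negative (n = 6) and Cd40-null (n = 2) DCs. Langerhans cell markers are highest and NK cell markers lowest in biotin-positive libraries, with no overlap in either list, whereas T cell markers overlap across the groups.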

How the data were processed

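RNA of sorted mouse DCs was sequenced by Smart-seq2, paired-end with reads of 38 bp per the labels' protocols. The submitters' processing notes name RSEM 1.2.8, Bowtie2 2.1.0, DESeq2 1.16.0 and the build mm10, without roles, and the annotation is not given in the sources used here. The table used holds RSEM expected counts as the authors deposited them (23420 gene symbols, whole numbers, no normalization). Their filtered, scaled table was not used.

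Counts were rounded and tested in R 4.3.3 with edgeR 4.0.16: filterByExpr (min.count 10, 14217 genes kept), TMM scaling, one quasi-likelihood fit of all 14 libraries with a group factor, two-sided tests, and Benjamini-Hochberg adjustment over all tested genes at 0.05. The SE of a log2 fold change is its size over the root of edgeR's F. Levels are TMM-scaled CPM, and log2 CPM used a prior count of 2. limma 3.58.1 (voom) and DESeq2 1.42.0 were alternatives. On simulated counts for 14217 genes, the test between biotin-positive and Cd40-null groups recovered 10% of 2-fold and 41% of 4-fold changes. Reads carry no molecular identifiers, so count limits cover counting error only. Libraries of a group differed by more than sampling noise (chi-square per degree of freedom of at least 35.3).

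The members and lists were chosen with earlier results of these data known. Named genes are the members, up to 4 genes of each list with the smallest p, and the 5 most like Serpinb6b by each measure; some items are not reported here. Alternatives are listed in the closing section. Promoters are RefSeq's (GRCm38.p6), and positions and transcripts GENCODE M21 (GRCm38).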

Additional observations from a re-analysis of the deposited data

Results flagged for a closer look

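In 3 cases a single library stood apart within their group of 6 by the gap to the nearest other library, among 14 groups of values examined; chance flags about 1 in 20 such groups. Serpinb1a was at 826 CPM in biotin-positive replicate 6, where the other 5 libraries held 379 to 469 CPM. Serpinb9b was at 207 CPM in biotin-positive replicate 1, where the others held 14.8 to 79.1 CPM. Serpinb6a was at 87.6 CPM in biotin-positive replicate 2, below the others at 103 to 108 CPM and still above every library of both other groups.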

How the results depend on the processing

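The log2 fold changes of the 7 genes and the counts of calls were recomputed under 9 other settings and with each of the 14 libraries left out. The settings were DESeq2, limma voom, RLE factors, upper-quartile factors, no filter on low counts, a replicate block, detected genes per library as a covariate, only the groups compared, and similar serpin genes summed. Of the 7 genes, 4 were called between the biotin groups. This became 1 with the covariate, 5 with DESeq2 (4 higher, 1 lower) and 5 with families summed, where each gene takes its family's value. Leaving out libraries kept it at 4. That contrast chose the genes, with Serpinb6b among the 4, so neither the count nor its steadiness is read as a result. Of the other 6 genes, 2 were called between biotin-positive and Cd40-null libraries, 1 with the replicate number as a block (Serpinb6a was lost, at an adjusted p of 0.137), and 0 to 2 over the left-out libraries (0 without either null library). The count was 3 with DESeq2, with Serpinb9b added. It was also 3 with families summed, where Serpinb9b only carries the value of the Serpinb9 family. Between biotin-negative and Cd40-null libraries the count of 0 became 1 without biotin-positive replicate 6 (range 0 to 1). Over all genes, 1102 calls between the biotin groups became 1589 with DESeq2 (734 higher, 855 lower) and 11 with the detected-gene covariate. Every biotin-negative library had more detected genes than every library of both other groups. In contrasts with the biotin-negative group the covariate can therefore hardly be told apart from the group. The 323 calls of biotin-positive against Cd40-null (174 higher, 149 lower) became 803 with DESeq2 (517 higher), 603 with limma voom (261 higher) and 129 with the replicate block, and ran from 78 (without null replicate 1; 95 without null replicate 2) to 346 over the left-out libraries. The 45 calls of biotin-negative against Cd40-null became 273 with DESeq2, 29 with only the groups compared, 19 with the replicate block and 6 with the detected-gene covariate, and ran from 12 (without null replicate 2; 21 without null replicate 1) to 54. The cause of these shifts was not tested. Uncalled values that changed sign, all against Cd40-null libraries, were those of Serpina3f, Serpinb9b and Serpinb1a. Serpina3f turned in biotin-positive (log2 -0.28 with limma voom, -1.96 with the block) and in biotin-negative libraries (-1.17 with the block). Serpinb9b turned in biotin-negative libraries (-0.0040 with the block, -1.16 with the covariate). Serpinb1a turned in biotin-positive libraries (0.32 without null replicate 2, against -0.53 without null replicate 1). With families summed, the Serpina3 family stood at log2 -0.22 in biotin-positive libraries. The Serpinb9 family stood at -0.094 in biotin-negative libraries. Those family values are not sign changes of Serpina3f or Serpinb9b themselves. Same-numbered biotin-positive and biotin-negative libraries did not deviate together (r from -0.0226 to 0.0132; 1 of 6 was closest to its own number), so the numbers are not taken to pair samples. Marker sums, levels per kb, likeness and the calls of single genes outside the 7 were not recomputed. With 2 Cd40-null libraries, comparisons with that group are the least precise.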
